A study of Arabidopsis thaliana with 8 samples.

Results

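The aliphatic glucosinolate genes of Arabidopsis thaliana were read in RNA-seq counts of primary roots. The set held 10 loci taken by their AGI identifiers from the 33602 loci of the table. It was chosen with earlier results of these data known. It comprised 5 genes of methionine chain elongation (BCAT4, BAT5, MAM1, MAM3 and IPMDH1), 3 cytochrome P450 genes of the core pathway (CYP79F1, CYP79F2 and CYP83A1) and 2 genes for MYB regulators (MYB28 and MYB29). All plants were wild type of the ecotype Col-0. In the dark groups whole plates were wrapped in aluminium foil for 4 or 7 days, so that shoot and root stayed in darkness. In the lit-shoot groups the shoot was in white light at 130 µmol for 16 h and in darkness for 8 h each day, while a D-Root device kept the roots dark, again for 4 or 7 days. Both treatments used sucrose-free Murashige and Skoog medium at 21 °C. Each group had 2 libraries, and each library was made from the pooled roots of about 70 seedlings given as an independent biological sample.

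Aliphatic glucosinolates are sulfur-rich defence compounds of the cabbage family that are built from methionine. The methionine side chain is first lengthened in cycles that resemble leucine synthesis, then the lengthened amino acid is turned into an aldoxime, oxidised, joined to sulfur and glucose and sulfated. Myrosinases break the finished compounds down when tissue is damaged, and in Arabidopsis the transcription of the pathway is driven by MYB28, MYB29 and MYB76 together with MYC factors.

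The libraries held 25326045 to 30555290 counts. Across genes, which are not independent of each other, log2 CPM of replicates correlated at 0.980 to 0.987. Within each group the 2 replicates differed beyond sampling noise, at a chi-square per degree of freedom of 12.2 to 68.4. The 12 root identity genes examined, among them SCR, SHR and PLT1, had counts in every library and together held 696 to 1455 CPM, or 195 to 402 CPM without PHO1, a phosphate exporter. CPM stands for counts per 1e+06 counts of a library, scaled with TMM factors. Of 16 shoot tissue markers, MUTE, FMA and EPF1 had no count in any library and 10 had at most 10 counts in all 8 libraries. The markers together held 49.8 to 69.9 CPM in dark roots and 38.8 to 64.5 CPM in roots of lit shoots. Most of that was KCS10, an epidermal wax gene, with 34.1 to 60.0 CPM.

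The pair CYP79F2 and CYP79F1 lies side by side on chromosome 1, 1183 bases apart, and both genes encode the P450 step that makes aldoximes from lengthened methionine. CYP79F1 is known to accept short and long chains and to act mainly in shoots, whereas CYP79F2 is known for long chains and for expression in roots. Their coding sequences in the TAIR10.1 assembly were identical at 1475 of 1614 aligned bases (91.4%). Whether reads with several matches were counted is not given in the sources used here, so the sequences are shown to let a reader judge how far the counts of the pair can be told apart. The longest run without a difference was 100 bases long, spanning bases 991 to 1090 of the CYP79F2 coding sequence and 994 to 1093 of that of CYP79F1, and a read within it would match both genes.
Both genes: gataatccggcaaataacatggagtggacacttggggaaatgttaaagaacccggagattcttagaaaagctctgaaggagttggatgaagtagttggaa
The stretch of 90 bases with the most differences had 20 of them, given in capitals, at coding bases 716 to 805 of CYP79F2 and 719 to 808 of CYP79F1, and a read from it would match the gene it came from better than the other.
CYP79F2: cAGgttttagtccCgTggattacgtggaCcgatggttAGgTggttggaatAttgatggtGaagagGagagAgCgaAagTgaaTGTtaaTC
CYP79F1: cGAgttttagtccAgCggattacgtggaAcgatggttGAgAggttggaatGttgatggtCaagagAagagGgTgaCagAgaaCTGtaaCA
Of all windows of 50 bases in the CYP79F2 coding sequence, 3.45% also occurred in CYP79F1. MAM1 and MAM3, which also lie near each other on chromosome 5 (11144 bases apart), were identical at 83.8% of aligned coding bases with no identical run over 30 bases. MYB28 and MYB29 were identical at 77.4%.

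Promoter windows of the TAIR10.1 annotation, from 250 bases before to 50 bases after each gene's start, are shown for the neighbouring CYP79F pair and for the members whose window held a G-box. The G-box CACGTG is a motif known for bHLH factors such as MYC2, and the AC element ACCNACC and the shorter MYB core AACNG are known for MYB factors. All 3 motifs were searched on both strands, and matches of the G-box and the AC element are in capitals.
CYP79F2, chr1:5604794-5605093, plus strand: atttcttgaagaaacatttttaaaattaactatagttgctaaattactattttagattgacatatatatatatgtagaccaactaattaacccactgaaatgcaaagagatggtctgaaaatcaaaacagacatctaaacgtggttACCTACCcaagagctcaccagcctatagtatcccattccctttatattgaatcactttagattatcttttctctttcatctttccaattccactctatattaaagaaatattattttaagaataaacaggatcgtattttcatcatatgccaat
CYP79F1, chr1:5608432-5608731, plus strand: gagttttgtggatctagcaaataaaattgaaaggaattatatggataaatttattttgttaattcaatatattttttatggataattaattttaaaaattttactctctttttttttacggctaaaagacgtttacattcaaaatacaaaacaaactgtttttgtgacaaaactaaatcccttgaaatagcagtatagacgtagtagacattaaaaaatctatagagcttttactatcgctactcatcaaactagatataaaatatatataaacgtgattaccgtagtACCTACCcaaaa
CYP83A1, chr4:7992380-7992679, minus strand: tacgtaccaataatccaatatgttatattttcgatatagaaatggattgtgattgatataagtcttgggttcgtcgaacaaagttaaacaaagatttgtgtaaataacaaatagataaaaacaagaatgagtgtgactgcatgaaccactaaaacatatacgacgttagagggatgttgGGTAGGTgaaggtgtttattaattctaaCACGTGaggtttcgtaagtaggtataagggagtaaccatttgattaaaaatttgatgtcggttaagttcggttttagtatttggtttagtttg
BAT5, chr4:7210557-7210856, plus strand: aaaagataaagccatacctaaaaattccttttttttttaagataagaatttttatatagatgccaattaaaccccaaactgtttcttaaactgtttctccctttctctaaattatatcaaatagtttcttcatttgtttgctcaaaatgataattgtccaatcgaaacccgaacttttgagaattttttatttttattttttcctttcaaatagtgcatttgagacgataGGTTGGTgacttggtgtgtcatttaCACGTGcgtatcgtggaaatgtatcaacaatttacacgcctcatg
The G-box was in 2 of the 10 members' windows, those of CYP83A1 and BAT5, and in 7.68% of the 27443 promoter windows of the assembly. The AC element was in 4 of 10, those of CYP79F2, CYP79F1, CYP83A1 and BAT5, and in 7.39% of all windows. The MYB core was in 7 of 10, a share near the 76.6% of all windows. The first base of the AC element lay 104 bases before the start in CYP79F2 and 38 bases after the start in CYP79F1. A match describes the letters of the window and shows no binding.

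Roots of lit shoots held far more transcripts of most of these genes than dark roots, and more at 7 than at 4 days. In replicates 1 and 2, the CPM of the 10 genes summed to 3.05 and 2.55 in the dark at 4 days and to 1.67 and 0.883 in the dark at 7 days. With lit shoots the sums were 36.8 and 77.1 at 4 days and 282 and 532 at 7 days. In roots as a whole, fewer cells of a type and less RNA per cell cannot be told apart. Of the 10 genes, 8 passed the filter on low counts and were tested, and CYP79F1 and MYB29 did not. Among the dark libraries alone only MAM1, MAM3 and BAT5 would have passed that filter, so the other 5 tested genes entered through the lit-shoot libraries and their counts of calls are a description. Of the 8 tested genes, 5 were called higher with lit shoots at 4 days and 8 at 7 days, and none was called lower. Over all 20936 tested genes, 57.1% were called at 4 days, 30.5% higher and 26.6% lower, and 69.0% at 7 days, 36.2% higher and 32.8% lower. Of the 4-day calls 53.5% were higher, a share that was 66.2% when only library totals scaled the counts. A call means a Benjamini-Hochberg adjusted p below 0.05 in edgeR's quasi-likelihood test over all tested genes, and every adjusted p below comes from that test.

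**Figure D1:**
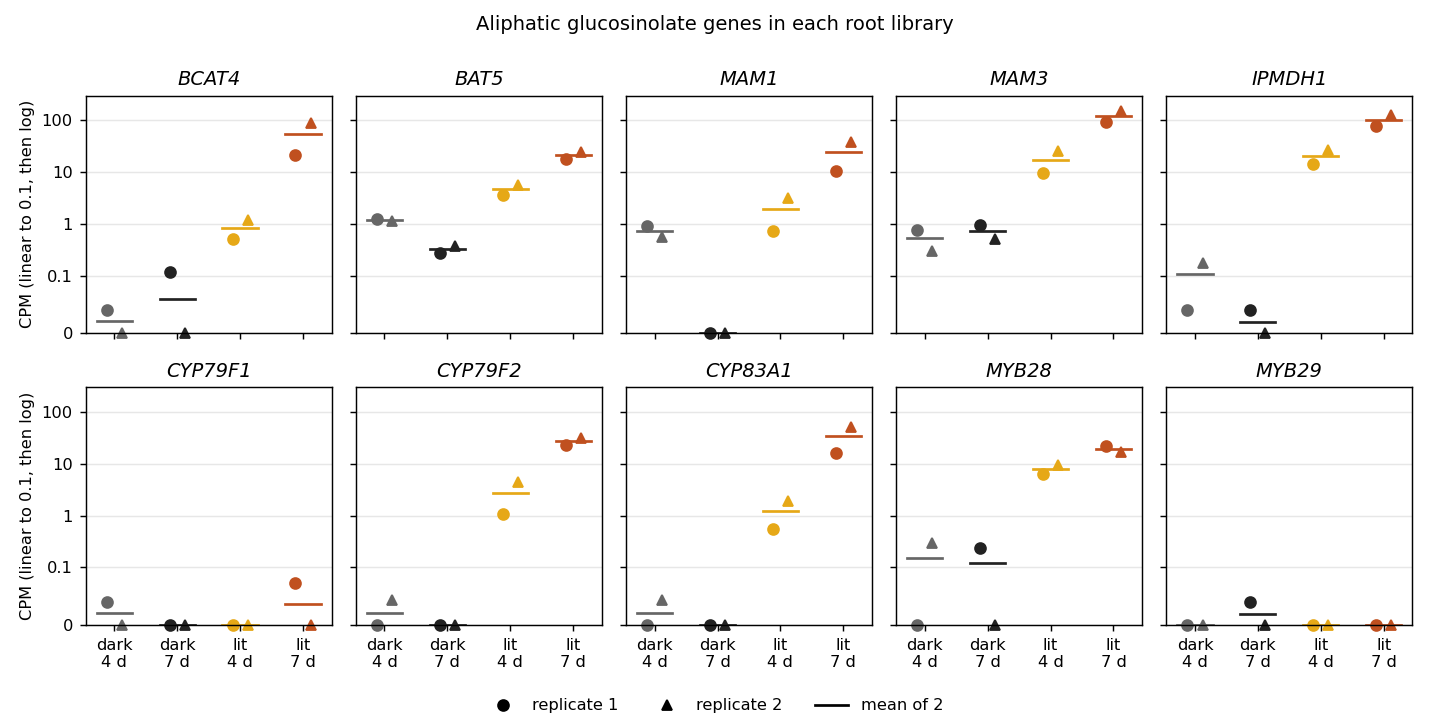
CPM of each of the 10 genes in each library (circles replicate 1, triangles replicate 2, bars the mean of 2), by light condition and age. The vertical axis is linear from 0 to 0.1 CPM and logarithmic above. In 8 panels the lit-shoot libraries at 7 days stand highest, whereas CYP79F1 and MYB29 stay below 0.1 CPM throughout.

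BCAT4 (AT3G19710, chromosome 3, 6846969 to 6849582, minus strand, TAIR10.1) encodes the aminotransferase that takes methionine into chain elongation. It had 0.0407 and 0 CPM in replicates 1 and 2 of dark roots at 4 days, 0.120 and 0 CPM in dark roots at 7 days, 0.500 and 1.17 CPM with lit shoots at 4 days, and 21.0 and 88.8 CPM with lit shoots at 7 days. Every lit-shoot library stood above every dark library, and the replicates of lit shoots at 7 days differed 4.22-fold. The dark 4-day group rested on 1 count and the dark 7-day group on 3. The ratio of lit to dark counts was 39.5 at 4 days (95% counting interval 6.77 to 1592, adjusted p = 0.11, not called) and 1013 at 7 days (346 to 4912, adjusted p = 0.00049). Such intervals cover counting error only. The 4-day call was made by DESeq2 (adjusted p = 0.012), with the replicate number as a block (0.012), in a fit of the 2 groups alone (0.0057), without a filter (1.4e-11) and without either lit-shoot 7-day library (0.0062 and 0.0048). Over 11.7% of its length BCAT4 overlaps a locus on the other strand, and the strand used in counting is not given in the sources used here.

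BAT5 (AT4G12030, chromosome 4, 7210807 to 7213376, plus strand) encodes the carrier that brings the keto acid into the plastid. Its values were 1.26 and 1.13 CPM in the dark at 4 days, 0.279 and 0.368 CPM in the dark at 7 days, 3.67 and 5.67 CPM with lit shoots at 4 days, and 17.6 and 24.7 CPM with lit shoots at 7 days. Its 4 groups did not overlap. With lit shoots its replicate 2 was 1.55-fold above replicate 1 at 4 days and 1.40-fold above it at 7 days. BAT5 rose with lit shoots by 1.96 ± 0.30 (log2 fold change ± SE, adjusted p = 0.00072) at 4 days and by 6.01 ± 0.35 (adjusted p = 3.3e-06) at 7 days. Among the 10 genes only BAT5 and MAM3 had counts in all 8 libraries.

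MAM1 (AT5G23010, chromosome 5, 7703041 to 7706973, plus strand) encodes the synthase known for the short-chain products. It had 0.895 and 0.563 CPM in dark roots at 4 days, no count in either dark library at 7 days, 0.733 and 3.09 CPM with lit shoots at 4 days, and 10.7 and 37.6 CPM with lit shoots at 7 days. At 4 days the lit and dark libraries overlapped (log2 fold change 1.37 ± 1.06, adjusted p = 0.31). At 7 days MAM1 was at least 421-fold higher with lit shoots, with 3 counts over the dark group as the floor (adjusted p = 0.0022).

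MAM3 (AT5G23020, chromosome 5, 7718118 to 7721866, plus strand) encodes the synthase known for products of all chain lengths. Its values were 0.773 and 0.303 CPM in the dark at 4 days, 0.957 and 0.515 CPM in the dark at 7 days, 9.43 and 25.1 CPM with lit shoots at 4 days, and 93.5 and 153 CPM with lit shoots at 7 days. The dark libraries all stayed below 1 CPM and overlapped between the ages, and every lit-shoot library stood above them. MAM3 rose by 4.97 ± 0.73 (log2, adjusted p = 0.0015) at 4 days and by 7.39 ± 0.69 (adjusted p = 0.00012) at 7 days. Per kilobase of exon, the level of MAM3 was 0.968 and 0.604 times that of MAM1 in the dark at 4 days, 14.4 and 9.10 times with lit shoots at 4 days, and 9.79 and 4.55 times with lit shoots at 7 days. The ratio was thus above 1 in the 4 lit-shoot libraries and below 1 in both dark 4-day libraries.

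IPMDH1 (AT5G14200, chromosome 5, 4576123 to 4578402, plus strand) encodes the dehydrogenase that ends an elongation cycle. It had 0.0407 and 0.173 CPM in the dark at 4 days, 0.0399 and 0 CPM in the dark at 7 days, 14.5 and 26.5 CPM with lit shoots at 4 days, and 77.7 and 127 CPM with lit shoots at 7 days. No lit-shoot library came near the dark libraries. IPMDH1 rose by 7.55 ± 0.66 (log2, adjusted p = 0.00012) at 4 days. At 7 days the dark group had 1 count, and the ratio was 5485 (95% counting interval 984 to 216683, adjusted p = 1.1e-05).

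CYP79F2 (AT1G16400, chromosome 1, 5605044 to 5607498, plus strand) had 0 and 0.0433 CPM in the dark at 4 days, no count in the dark at 7 days, 1.10 and 4.395 CPM with lit shoots at 4 days, and 23.2 and 32.3 CPM with lit shoots at 7 days. In raw reads this was 1 count over the 4 dark libraries against 161 over the lit-shoot libraries at 4 days and 1710 at 7 days. CYP79F2 rose with lit shoots at 4 days, with a ratio of 130 (95% counting interval 23.0 to 5159, adjusted p = 0.0067), a call that ended without dark 4-day replicate 1 (adjusted p = 0.060). It was at least 483-fold higher at 7 days (adjusted p = 0.00029). Its neighbour CYP79F1 (AT1G16410, chromosome 1, 5608682 to 5612064, plus strand) had 1 count in dark 4-day replicate 1, 2 counts in lit-shoot 7-day replicate 1 and none in the other 6 libraries. A fold for CYP79F1 was not computed, since no group held more than 3 counts. Any reads from the identical run shown above would touch both genes equally.

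CYP83A1 (AT4G13770, chromosome 4, 7990429 to 7992429, minus strand) encodes the P450 that oxidises the aldoximes. Its values were 0 and 0.0433 CPM in the dark at 4 days, 0 in both dark libraries at 7 days, 0.567 and 1.89 CPM with lit shoots at 4 days, and 16.5 and 52.1 CPM with lit shoots at 7 days. Lit-shoot and dark libraries did not overlap at either age, and the replicates of lit shoots at 7 days differed 3.17-fold. The ratio at 4 days was 58.1 (95% counting interval 10.09 to 2324, adjusted p = 0.057, not called). That value passed with library totals as the only scaling (adjusted p = 0.045), with DESeq2 (0.0041), with the replicate block (0.00021), in the fit of the 2 groups alone (0.0058), without a filter (3.2e-17) and without lit-shoot 4-day replicate 1 (0.040) or either lit-shoot 7-day library (0.017 and 0.0072). At 7 days CYP83A1 was at least 597-fold higher with lit shoots (adjusted p = 0.001).

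MYB28 (AT5G61420, chromosome 5, 24689069 to 24691187, minus strand) encodes the main activator of the pathway. It had 0 and 0.303 CPM in the dark at 4 days, 0.239 and 0 CPM in the dark at 7 days, 6.30 and 9.34 CPM with lit shoots at 4 days, and 21.9 and 16.8 CPM with lit shoots at 7 days. In each dark group its counts came from a sole library, 7 counts at 4 days and 6 at 7 days. MYB28 rose by 5.69 ± 0.77 (log2, adjusted p = 0.00061) at 4 days and by 7.34 ± 0.76 (adjusted p = 8.8e-05) at 7 days. MYB29 (AT5G07690, chromosome 5, 2446669 to 2448584, plus strand), a related activator, had 1 count in dark 7-day replicate 1 and none elsewhere. MYB76, the third activator of this clade and no member of the 10, had 2 counts in dark 4-day replicate 1 and none elsewhere. A group without a count for such a gene allows up to 3 counts, which is 0.0494 CPM for lit shoots at 7 days and 0.0507 CPM at 4 days.

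Levels of different genes were compared per kilobase of exon. With lit shoots at 7 days MAM3 had 67.3 ± 23 CPM per kilobase (mean ± SD, n = 2) and IPMDH1 60.1 ± 21, followed by BCAT4 at 37.8 ± 33, CYP83A1 at 18.0 ± 13, CYP79F2 at 13.8 ± 3.2, MAM1 at 11.8 ± 9.3, MYB28 at 9.78 ± 1.8 and BAT5 at 9.58 ± 2.3. Each neighbour in this order overlapped the next in its replicate values, while genes at the ends of the order, such as MAM3 and BAT5, did not overlap. CYP79F1 stood at 0.0111 and MYB29 at 0. With lit shoots at 4 days the order was IPMDH1 (12.0 ± 5.0), MAM3 (9.43 ± 6.0), MYB28 (3.95 ± 1.1), BAT5 (2.11 ± 0.64), CYP79F2 (1.36 ± 1.2), MAM1 (0.932 ± 0.81), CYP83A1 (0.643 ± 0.49) and BCAT4 (0.575 ± 0.33). There MAM3 did not overlap MYB28, nor MYB28 BAT5. In the dark at 4 days BAT5 (0.540 ± 0.044 CPM per kilobase) stood above MAM1 (0.355 ± 0.11) and MAM3 (0.294 ± 0.18), and the other members were at 0.0766 or less. In the dark at 7 days MAM3 (0.402 ± 0.17) and BAT5 (0.146 ± 0.028) were the highest.

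**Figure D2:**
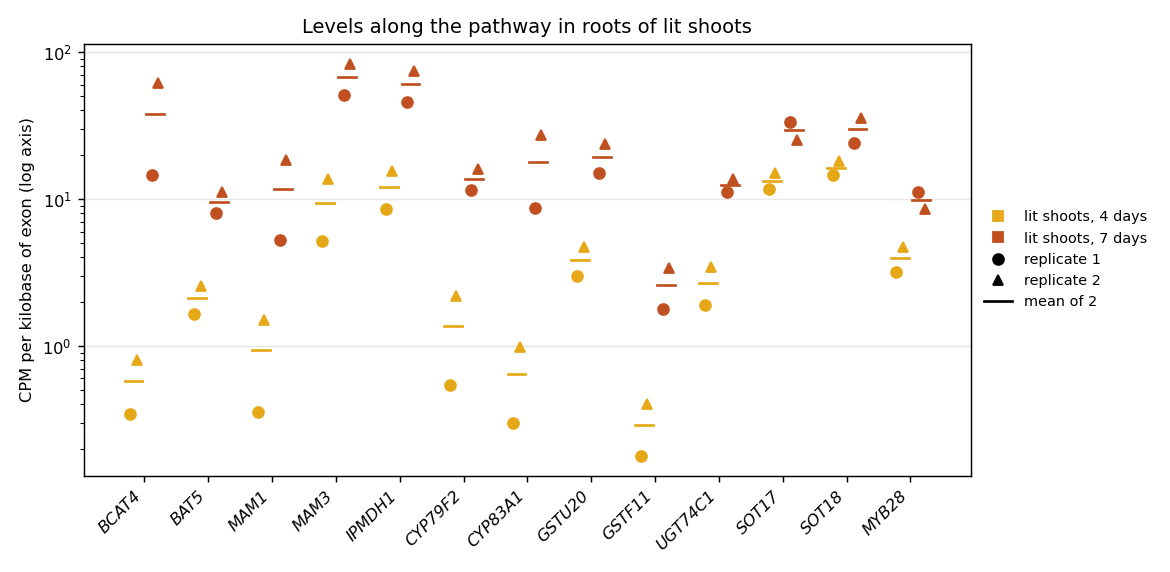
CPM per kilobase of exon in roots of lit shoots (log axis) for 8 members and 5 further pathway genes in pathway order, with circles for replicate 1, triangles for replicate 2 and bars for the mean of 2. At 7 days MAM3 and IPMDH1 stand highest and GSTF11 lowest, and at 4 days BCAT4, MAM1, CYP83A1 and GSTF11 all have means below 1.

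In roots of lit shoots most members rose with age. There 6 of the 8 tested members were called higher at 7 than at 4 days, against 2.13% higher, 2.10% lower and 4.23% called in all among the 20936 genes. MAM3 rose by 2.84 ± 0.50 (log2, adjusted p = 0.040), BCAT4 by 6.04 ± 0.87 (0.024), BAT5 by 2.18 ± 0.26 (0.0077), IPMDH1 by 2.33 ± 0.35 (0.021), CYP79F2 by 3.34 ± 0.58 (0.041) and CYP83A1 by 4.81 ± 0.79 (0.043). MAM1 changed by 3.66 ± 0.86 (adjusted p = 0.086) and MYB28 by 1.31 ± 0.46 (adjusted p = 0.16). In all 8 the lit-shoot libraries of the ages did not overlap. The share of all genes that did the same was not counted, so this separation is a description only. Without lit-shoot 4-day replicate 1 none of the 8 members passed in edgeR, and no gene of the table did, although 7 members and 2716 genes had an unadjusted p under 0.05. Without dark 4-day replicate 2 the number of members called was 3.

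In the dark only BAT5 was called between the ages, lower at 7 days by a log2 change of -1.86 ± 0.42 (adjusted p = 0.011), and the call ended without dark 7-day replicate 1 (adjusted p = 0.069). Of all tested genes 31.6% were called in this comparison, 13.3% higher and 18.3% lower. MAM1 went from 35 counts to none, at least 12.7-fold lower, but was not called (adjusted p = 0.14). It passed with DESeq2 (0.0016), with the replicate block (0.041), in the fit of the 2 dark groups alone (0.012), without a filter (1.5e-11) and without lit-shoot 7-day replicate 2 (0.041). MAM3 stood at 0.42 ± 1.04 (adjusted p = 0.79) and MYB28 at -0.34 ± 1.43 (0.88). IPMDH1 went from 5 counts to 1 (adjusted p = 0.48), and the dark groups of BCAT4, CYP79F2 and CYP83A1 held too few counts for a fold.

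The light effect at 7 days exceeded that at 4 days beyond error for BAT5 alone among the 8, by a log2 difference of 4.05 ± 0.49 (interaction term, adjusted p = 0.0022). Of all tested genes 14.6% were called for this difference, 9.03% with a larger value at 7 days and 5.57% with a smaller value. MAM3 (2.42 ± 1.21, adjusted p = 0.22) and MYB28 (1.65 ± 1.55, 0.50) did not pass. Nor did MAM1 (0.059) and IPMDH1 (0.21), whose fitted differences depend on the prior count because their dark 7-day groups held at most 1 count. DESeq2 called 3 members, with MAM1 (4.0e-05) and IPMDH1 (0.024) added, and so did the fit with the replicate block (0.018 and 0.027). Dark groups of CYP79F2, CYP83A1 and BCAT4 held 3 counts or fewer at both ages, and no interaction value is given for them.

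The replicates of lit shoots differed in a way that ran through the set. At 4 days replicate 2 was higher than replicate 1 for all 8 tested members, 1.48-fold to 4.22-fold with a median of 2.50-fold. At 7 days it was higher for 7 of 8, with a median of 1.64-fold and a top of 4.22-fold for BCAT4, while MYB28 was at 0.768-fold. Over all tested genes replicate 2 was higher in 47.2% at 4 days and in 52.9% at 7 days, and exceeded replicate 1 more than 2-fold in 1.21% and 1.91%. The 23 further aliphatic genes described below were split at 7 days, with 12 higher and 11 lower in replicate 2 (median 1.20-fold). Of the 16 indole glucosinolate genes, which make the tryptophan-derived compounds, 11 were higher in replicate 2 at 4 days, with a median of 1.03-fold. At 7 days 13 of them were lower in replicate 2, with a median of 0.742-fold, and CYP79B2 and CYP79B3, which start that branch, were at 0.536-fold and 0.575-fold. At 7 days, though not at 4 days, most tested members and most indole genes thus differed in opposite directions between the same 2 libraries.

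**Figure D3:**
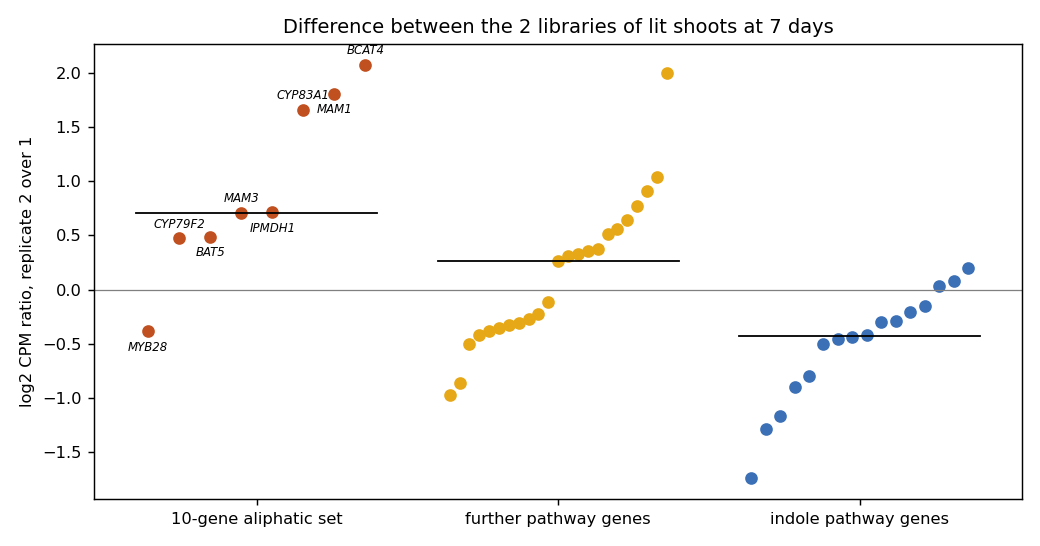
Log2 ratio of CPM between replicate 2 and replicate 1 of lit shoots at 7 days for the 8 tested members (red, named), 23 further aliphatic pathway genes (yellow) and 16 indole pathway genes (blue). Bars give the median of each list. The members lie above 0 except MYB28, and 13 of 16 indole genes lie below 0.

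Further genes of the aliphatic pathway were counted next. Of 27 such genes 23 were tested, of which lit shoots had 14 higher and 1 lower at 4 days, and 19 higher and 1 lower at 7 days. GSTF11, GSTU20, UGT74C1, FMO GS-OX2 and FMO GS-OX3 entered the test through the lit-shoot libraries alone, so these counts are a description. Of the 18 that would also have passed the filter among the dark libraries, 11 were called higher and 1 lower at 4 days. At 7 days 14 of the 18 were called higher and 1 lower. Among all tested genes 30.5% were higher and 26.6% lower at 4 days, and 36.2% higher and 32.8% lower at 7 days. The median log2 fold change of the 23 was 0.80 at 4 days and 2.21 at 7 days, while the median over all tested genes was 0.06 at both. FMO GS-OX1, AOP2, AOP3 and MYB76 were not tested. AOP2 is annotated as a transcribed pseudogene in this assembly and had 1 to 8 counts per group.

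Chain elongation partners differed in size of response. IPMI SSU2 and IPMI SSU3, small subunits of the isomerase, rose by 2.31 ± 0.57 (log2, adjusted p = 0.0091) and 3.37 ± 0.84 (0.011) at 4 days and by 4.12 ± 0.54 (0.00024) and 5.38 ± 0.76 (0.00047) at 7 days. The large subunit gene IPMI LSU1, shared with leucine synthesis, had 126 and 134 CPM in the dark at 4 days, 99.3 and 100.5 CPM in the dark at 7 days, 142 and 156 CPM with lit shoots at 4 days and 219 and 284 CPM with lit shoots at 7 days. It did not pass at 4 days (0.20 ± 0.13, adjusted p = 0.23) and rose by 1.33 ± 0.13 (adjusted p = 3.7e-05) at 7 days. BCAT3 and IPMDH3, which also serve both routes, rose by 1.30 ± 0.14 (adjusted p = 5.7e-05) and 1.43 ± 0.16 (5.4e-05) at 7 days.

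Paralogs that belong to leucine synthesis changed by -1.04 to 0.98 on the log2 scale. IPMS1, a leucine synthase paralog of the MAM genes, fell, with log2 changes of -0.67 ± 0.13 (adjusted p = 0.0023) and -1.04 ± 0.13 (0.00012) at 4 and 7 days. IPMS2 rose by 0.48 ± 0.13 (0.014) and 0.72 ± 0.13 (0.0013), IPMDH2 by 0.38 ± 0.12 (0.024) and 0.33 ± 0.12 (0.037), and IPMI SSU1 by 0.77 ± 0.13 (0.0013) and 0.98 ± 0.13 (0.0002). At each age 3 of these 4 genes were thus called higher and 1 lower. Among all tested genes 57.1% were called at 4 days and 69.0% at 7 days. The 4-day number of calls among the 4 was smaller without dark 4-day replicate 2 and without either lit-shoot 4-day library.

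Genes of core structure formation differed in their dark levels and in their response. GSTU20, a glutathione transferase, had 0.326 and 0.0866 CPM in the dark at 4 days, 0.120 and 0 CPM in the dark at 7 days, 3.43 and 5.39 CPM with lit shoots at 4 days and 17.3 and 27.0 CPM with lit shoots at 7 days. GSTU20 rose by 4.37 ± 0.59 (log2, adjusted p = 0.00048) at 4 days, and at 7 days, from 3 dark counts, by a ratio of 394 (95% counting interval 134 to 1911, adjusted p = 1.5e-05). UGT74C1, the glucosyltransferase of the aliphatic branch, had 9 counts in the dark at 4 days and none at 7 days, against 3.10 and 5.63 CPM with lit shoots at 4 days and 18.2 and 22.5 CPM at 7 days. UGT74C1 rose by 4.50 ± 0.48 (log2, adjusted p = 0.0002) at 4 days and was at least 355-fold higher at 7 days (adjusted p = 7.3e-06). SUR1, the C-S lyase shared with the indole branch, rose by 1.54 ± 0.14 (5.6e-05) and 2.21 ± 0.14 (4.0e-06), and UGT74B1, the shared glucosyltransferase, by 1.65 ± 0.15 (7.0e-05) and 2.32 ± 0.16 (5.3e-06). GGP1, the peptidase shared by both branches, had 115 and 72.5 CPM in the dark and 106 and 119.8 CPM with lit shoots at 4 days, where the libraries overlapped (0.27 ± 0.21, 0.31), and rose by 1.22 ± 0.22 (0.0013) at 7 days. GSTF11, another transferase, lies wholly over a locus on the other strand, so the origin of its 16 and 151 lit-shoot counts at 4 and 7 days is uncertain. UGT74C1, IPMDH3, GTR1 and GTR3 overlap such loci over 14.1%, 11.3%, 12.8% and 22.8% of their length and FMO GS-OX5 over 44.5%, and SOT18, GTR3 and FMO GS-OX5 overlap another locus on their own strand.

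The 2 sulfotransferases of the last step differed from each other. SOT17 had 2.16 and 2.29 CPM in the dark at 4 days, 3.35 and 3.94 CPM in the dark at 7 days, 17.6 and 22.4 CPM with lit shoots at 4 days and 50.1 and 37.5 CPM with lit shoots at 7 days. SOT18 had 21.7 and 22.7, 35.6 and 27.6, 20.2 and 25.0, and 33.3 and 48.9 CPM in the same groups, and its lit and dark libraries overlapped at both ages. SOT17 rose by 3.58 ± 0.20 (log2, adjusted p = 2.8e-06) at 7 days, whereas SOT18 stood at 0.38 ± 0.20 (adjusted p = 0.13). Per kilobase, SOT17 was at 0.0865 to 0.131 times SOT18 in the 4 dark libraries and at 0.706 to 1.39 times in the 4 lit-shoot libraries, ranges that did not overlap. The difference between the fold changes of the 2 genes was not tested.

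APK1 and APK2, the kinases that supply the sulfate donor, rose by 2.59 ± 0.14 (log2, adjusted p = 2.4e-06) and 3.75 ± 0.55 (0.001) at 7 days. Among side-chain modifying genes, FMO GS-OX4, an S-oxygenase, fell, from 388 ± 36 to 230.5 ± 12 CPM at 4 days (log2 -0.75 ± 0.16, adjusted p = 0.0033) and from 445 ± 63 to 228 ± 39 CPM at 7 days (-0.96 ± 0.16, 0.00057). FMO GS-OX2 had no dark count at 7 days and was at least 15.6-fold higher with lit shoots (adjusted p = 0.0019). Of the glucosinolate transporters, GTR3 rose by 1.27 ± 0.18 (0.00045) and 0.87 ± 0.17 (0.002), while GTR1 (0.07 ± 0.34, 0.87) and GTR2 (0.57 ± 0.27, 0.088) did not pass at 7 days.

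**Figure D4:**
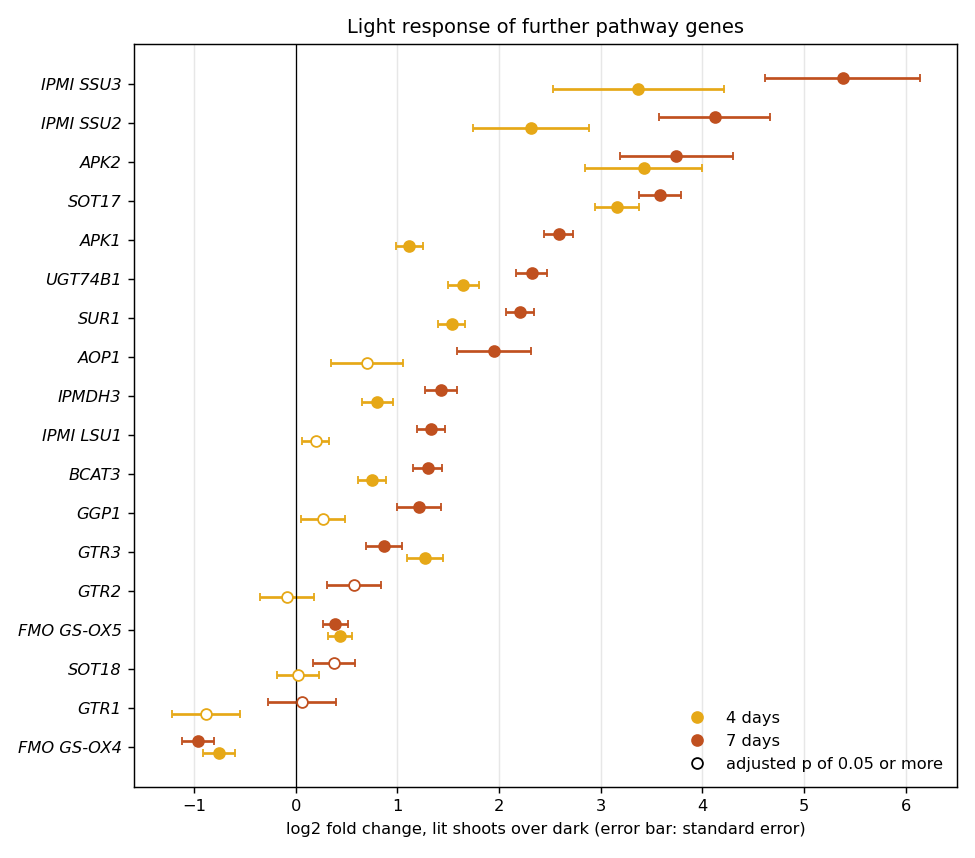
Log2 fold change of lit over dark roots with its standard error for 18 further pathway genes at 4 days (yellow) and 7 days (red), open where the adjusted p is 0.05 or more. The values run from the fall of FMO GS-OX4 to the rise of IPMI SSU3, and genes with 3 or fewer counts in a dark group are left out.

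Between the ages, 7 of the 23 further genes were called higher at 7 days with lit shoots and none lower, with none without lit-shoot 4-day replicate 1, 1 without lit-shoot 4-day replicate 2 and 4 without lit-shoot 7-day replicate 1. Among all tested genes 4.23% were called between the ages with lit shoots and 31.6% in the dark. In the dark 2 of the further genes were higher and 2 lower. That count of 4 was 1 without dark 4-day replicate 1 or dark 7-day replicate 1, and 8 without either lit-shoot 7-day library. SOT17 rose by 0.71 ± 0.23 (log2, adjusted p = 0.043) in the dark and GTR3 by 0.78 ± 0.17 (0.011), while APK1 changed by -0.72 ± 0.14 (0.0058) and UGT74C1 went from 9 counts to none (0.042).

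Of 6 regulators around the pathway, 3 were called lower with lit shoots and 1 higher at each age. Among all tested genes 26.6% were lower and 30.5% higher at 4 days, and 32.8% lower and 36.2% higher at 7 days. MYC2, a bHLH partner of the MYB factors, had 559.8 and 487 CPM in the dark at 4 days, 380.2 and 315 CPM in the dark at 7 days, 141 and 130.1 CPM with lit shoots at 4 days and 99.6 and 77.5 CPM with lit shoots at 7 days. Its lit-shoot libraries were all below its dark libraries, with log2 changes of -1.95 ± 0.16 (adjusted p = 4.6e-05) and -1.97 ± 0.16 (1.2e-05) at 4 and 7 days. MYC2 overlaps a locus on the other strand over 98.5% of its length, so its own share of these reads is uncertain. MYC3 fell too, with -0.91 ± 0.13 (0.00041) and -1.45 ± 0.13 (1.7e-05), and MYC4 stood at 0.25 ± 0.11 (0.089) and 0.23 ± 0.11 (0.092). SLIM1, a regulator of sulfur limitation that represses glucosinolate genes, fell, with -0.66 ± 0.10 (0.00064) and -0.93 ± 0.10 (5.2e-05). SDI1, a sulfur-deficiency repressor of the pathway, rose by 3.31 ± 0.59 (0.0018) and 1.83 ± 0.47 (0.0079), from 0.397 ± 0.072 to 4.00 ± 0.47 CPM at 4 days and from 2.44 ± 1.8 to 8.65 ± 2.4 CPM at 7 days.

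Genes of glucosinolate breakdown were mixed. Of 12 such genes 8 were tested, with 2 called higher and 2 lower at 4 days and 3 higher and 4 lower at 7 days. Among all tested genes 57.1% were called at 4 days and 69.0% at 7 days. NSP1, a nitrile-specifier protein, had 164 and 256 CPM in the dark at 4 days, 68.9 and 51.0 CPM in the dark at 7 days, 578 and 535 CPM with lit shoots at 4 days and 1099 and 928 CPM with lit shoots at 7 days. It rose by 1.41 ± 0.23 (log2, adjusted p = 0.001) and 4.08 ± 0.25 (5.0e-06). PYK10, the root beta-glucosidase, rose by 2.10 ± 0.27 (0.00029) and 3.37 ± 0.28 (1.5e-05). BGLU30, a beta-glucosidase linked to glucosinolate turnover under sulfur limitation, fell, with -6.36 ± 0.46 (5.5e-05) and -7.81 ± 0.49 (9.4e-06). The root myrosinase gene TGG4, which closely resembles its paralog TGG5, had 0.14 ± 0.37 (0.76) at 4 days and rose by 1.19 ± 0.38 (0.026) at 7 days. The leaf myrosinase genes TGG1 and TGG2 had 3 counts and 1 count in all libraries together and ESP, the epithiospecifier protein gene, had none.

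Indole glucosinolate genes were higher with lit shoots in 13 of 16 at 4 days and 14 of 16 at 7 days, with none lower. Their median log2 fold changes were 2.10 and 2.93. Among all tested genes 30.5% were higher at 4 days and 36.2% at 7 days. CYP81F1 and CYP81F4, both among the indole genes called, overlap loci on the other strand over 98.4% and 99.6% of their length. The counts of these 2 genes are thus uncertain. At 7 days the largest were those of IGMT5, a methyltransferase of indole products, at 5.96 ± 0.35 (adjusted p = 7.1e-06) and CYP79B3 at 5.21 ± 0.40 (3.3e-05). The smallest were those of MYB51 at -0.45 ± 0.51 (0.46) and IGMT1, of a tandem family whose reads may be shared, at 0.86 ± 0.33 (0.053). The level of CYP79B2 and CYP79B3 together in the dark was 7.93 to 38.3 CPM, whereas CYP79F2 was at 0.0433 CPM or less there.

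The genes whose pattern over the 8 libraries was most like the mean of the tested members were named by their Pearson r on log2 CPM, among 20928 other genes. With a symbol these were MIPS2 (r = 0.995), IRT1 (0.990), CYP82C4 (0.990), FAH1 (0.985), GLTP1 (0.984), SDH7 (0.983), SIR (0.983) and DHAR1 (0.983). MIPS2 is an inositol phosphate synthase, SIR the sulfite reductase of sulfate assimilation, IRT1 the iron transporter of the root surface and FAH1 a P450 of the phenylpropanoid route. The 8 libraries form 4 groups that share light and age, so that any gene with this order of groups scores high. UGT74C1 (rank 19) and GSTU20 (rank 21), both at 0.983, were the closest of the further pathway genes. Among the members r with the mean ran from 0.930 for MAM1 to 0.995 for CYP79F2. Of these 8 genes, IRT1 and CYP82C4 differed most between replicates 1 and 2 of lit shoots at 7 days, with 273 and 477 CPM and with 31.5 and 172 CPM. The others differed less, with MIPS2 at 12.8 and 14.5 CPM, FAH1 at 19.4 and 20.4 and GLTP1 at 76.4 and 80.2. SDH7 had 43.3 and 44.6 CPM, SIR 422 and 487, and DHAR1 went the other way with 217 and 196. The 8 genes were picked by correlation over the same libraries, so a shared replicate difference is in part built in.

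Among the shoot markers, PDF1, an epidermal gene, was higher with lit shoots at 7 days, while its lit and dark libraries overlapped at 4 days. It had 1.22 and 0.346 CPM in the dark at 4 days, 0.120 and 0.0368 CPM in the dark at 7 days, 0.766 and 0.790 CPM with lit shoots at 4 days, and 10.9 and 14.2 CPM with lit shoots at 7 days. At 7 days 2 of the 4 tested shoot markers were called higher with lit shoots, against 36.2% of all genes, PDF1 at 7.27 ± 0.63 (log2, adjusted p = 1.8e-05) and CER1 at 2.24 ± 0.55 (0.0057). PDF1 entered the test through the lit-shoot libraries, so these counts are a description. The 16 shoot markers summed to 53.5 and 49.8 CPM in dark roots against 60.5 and 64.5 CPM in roots of lit shoots at 7 days. Without KCS10, which holds most of that sum, the other 15 summed to 2.99 and 2.21 CPM in the dark and 15.6 and 22.5 CPM with lit shoots at 7 days, and to 9.97 and 2.90 CPM in the dark against 4.57 and 4.67 CPM with lit shoots at 4 days. STM, CLV3 and SPCH stayed at 0.182 CPM or less in every library.

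Some root cell type markers also differed with light. Of 12, all tested, 3 were called higher and 3 lower at 4 days, and 4 higher and 4 lower at 7 days. Among all tested genes 57.1% were called at 4 days and 69.0% at 7 days. COBL9, a root hair gene, had 1.14 and 6.02 CPM in the dark and 51.9 and 44.6 CPM with lit shoots at 4 days, and 0.159 and 0.589 CPM in the dark against 26.4 and 35.0 CPM with lit shoots at 7 days. It rose by 3.76 ± 0.64 (log2, adjusted p = 0.0029) and 6.32 ± 0.83 (0.00061). WER, an epidermal regulator, rose by 1.14 ± 0.25 (0.0043) and 3.11 ± 0.29 (2.3e-05). MYB36, a regulator of the endodermis, fell, with -0.87 ± 0.13 (0.00054) and -1.72 ± 0.13 (8.8e-06). CASP1 of the same list went the other way at 7 days, with 42.5 and 47.2 CPM in the dark. With lit shoots it had 93.3 and 86.5 CPM there. At 4 days its libraries overlapped, with 111 and 166 CPM in the dark and 177 and 151 CPM with lit shoots. These named markers were chosen after their values were seen. The part of these root and shoot markers in the members' rise was not tested.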

How the data were processed

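Per the labels' protocols, ribosomal RNA was depleted before library preparation. The submitters' processing notes name CASAVA 1.8.2, FastQC, Trim Galore, TopHat2, Subread and the build TAIR10. The authors deposited whole-number counts per locus, not normalized. Strand and multiple-match settings were not stated in any source used.

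Low counts were filtered by edgeR 4.0.16 (filterByExpr, at least 10 counts and 15 in total), leaving 20936 of 33602 loci. TMM factors of 0.912 to 1.09 scaled the counts. All 8 libraries entered the same quasi-likelihood model with 4 group means and 4 residual degrees of freedom, and Benjamini-Hochberg adjustment ran over all tested genes. The script was tested on simulated data. CPM is given as mean ± SD over n = 2 libraries. A standard error is the log2 fold change divided by the root of F. A group at 0 was set at a floor of 3 counts over the group, and groups of 1 to 3 counts have 95% counting intervals. DESeq2 1.42.0 was an alternative.

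Named genes are the 10 members, lists of further aliphatic, regulator, breakdown, leucine and indole genes (at most 4 indole genes by size, with CYP79B2 named after its values were seen), and the 8 genes with a symbol closest in pattern. The members and lists were chosen with earlier results of these data known. Positions, exon lengths and sequences come from TAIR10.1 by RefSeq. Per the labels the 2 samples of a group are separate biological samples of pooled seedlings, and no batch is given.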

Additional observations from a re-analysis of the deposited data

Results flagged for a closer look

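By edgeR's interaction term, the light effect differed between 7 and 4 days for 6 listed genes, in each case larger at 7 days. They were 1 of 8 tested members, 4 of 23 further aliphatic genes, 0 of 6 regulators and 1 of 8 breakdown genes. Over all tested genes 14.6% (3057) were called for this difference, 9.03% larger and 5.57% (1167) smaller at 7 days. The 6 calls are thus a description of those genes. Of the 16 indole genes 5 were called larger. The log2 difference was 4.05 ± 0.49 for BAT5 (adjusted p = 0.0022), 1.13 ± 0.19 for IPMI LSU1 (0.0078), 0.67 ± 0.19 for SUR1 (0.046), 1.47 ± 0.19 for APK1 (0.0029) and 2.67 ± 0.32 for NSP1 (0.0025). It was 7.63 ± 1.54 for UGT74C1 (0.019), where the dark 7-day group held no count and the fitted size depends on the prior count. In each of these genes except UGT74C1 both dark groups held counts in every library. BAT5, APK1, NSP1 and UGT74C1 were also lower in the dark at 7 than at 4 days, with NSP1 at -1.81 ± 0.23 (adjusted p = 0.0011).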

How the results depend on the processing

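Of the 8 tested members, 5 entered the test only through the lit-shoot libraries, so counts of their calls are a description. The 3 that would also have passed the filter among the dark libraries were all called higher at 7 days. The 8 members called with lit shoots at 7 days stayed 8 in number in every alternative run that kept both libraries of the compared groups. At 4 days 8 were called without a filter against 5, and 4 to 7 when a library was left out. Between the ages in the dark, 2 members were called with DESeq2, without a filter, with the replicate block and in a fit of 2 groups, and 0 to 2 when a library was left out. Of the further genes 8 were called there without a filter and 1 to 8 when a library was left out, and of all genes 3487 to 6993. Between the ages with lit shoots, leaving out a library gave 0 to 5 members, 0 to 7 further genes and 0 to 1111 of all genes. There DESeq2 called 12 further genes and 1771 of all genes, and a fit without a filter 16 and 3056. The counts of 0 came from edgeR without lit-shoot 4-day replicate 1, where 7 members, 12 further genes and 2716 of all genes had an unadjusted p under 0.05, and for the dark without dark 7-day replicate 1, where 1 member had. For the interaction, 3 members were called with DESeq2, 5 without a filter, 3 with the replicate block and 1 to 2 when a library was left out. Of the further genes DESeq2 called 7, no filter 14 and fits without a library 2 to 6, and of all genes no filter gave 4964 and fits without a library 832 to 2918.

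Of 537 alternative values of single members 5 reversed, all in fits without a library and none in a called value. The dark change with age ranged from -0.11 to 1.24 for MAM3 and from -5.11 to 4.77 for MYB28, and the interaction of MYB28 from -3.42 to 6.46. The causes of these differences were not tested. Scaling by library totals alone raised the median over all genes by 0.20 (log2) at 4 days and 0.17 at 7 days, and no member for which it was computed changed direction.

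Replicates with the same number correlated in their deviations at 0.0099 to 0.087 between groups over all tested genes. A value over all genes cannot show whether replicates of the same number were paired for some of them. The replicate block gave 7 members at 4 days and 8 at 7 days with light, and 7 between the ages with lit shoots. Depth limits the dark groups, where 7 of the 10 members had at most 7 counts in any library.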
